A study of Mus musculus with 14 samples.

Results

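The genes described here are 36 genes of the G2 and mitosis program, listed by symbol, which drive and carry out the division of a cell that has copied its DNA. They were found by gene symbol in a table of 24675 named genes, each with 1 probe set. A probe set was found for 35 of the 36, and Ccnb1 is not analysed here. The rule that finds these genes reads symbols and no measured value, but the list was chosen with earlier results of these data known. All 35 genes passed the filter on dim probe sets, each of them on at least 1 array of every group.

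RNA was measured on 14 arrays (Affymetrix Mouse Gene 2.0 ST), 1 for each sorted cell sample from an individual mouse. All mice, the controls included, carried Lgr5-EGFP-IRES-CreERT2, which places EGFP and a tamoxifen-inducible Cre recombinase under the control of the stem cell gene Lgr5, and the knockout mice also carried floxed alleles of Atg7 (Atg7 fl/fl), an enzyme needed to form autophagosomes. All received tamoxifen on 5 days in a row and were killed 1 month later, and crypt cells low for CD24 were sorted by their EGFP. Cells with high EGFP are named stem cells and cells with low EGFP their direct transit amplifying progeny in the labels, and before hybridisation 1 ng of RNA was amplified. There were 4 groups, WT-High (3 arrays), Atg7KO-High (3 arrays), WT-Low (4 arrays) and Atg7KO-Low (4 arrays), and single arrays are called by group plus title number (WT-High-411 for example). Cre is driven by Lgr5, so recombination starts in cells that express Lgr5, and the share of cells that recombined is not analysed here. The control mice had the same Cre and the same tamoxifen, so these are shared by both genotypes.

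As background, entry into mitosis is driven by the kinase CDK1 bound to cyclins A and B, and is carried on by the Polo and Aurora kinases, which ripen the centrosomes, condense the chromosomes and build the spindle. The spindle checkpoint holds the cell until every kinetochore is attached, and the anaphase-promoting complex then destroys cyclin B and securin so that the chromosomes part and the cell is cleaved. Most of these genes are transcribed late in the cell cycle, through CCAAT boxes bound by NF-Y and through a short element, the CHR, bound by the DREAM and MuvB complexes with B-Myb and FoxM1. Lgr5 stem cells at the base of the crypt divide steadily, and their transit amplifying progeny divide quickly before they differentiate.

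These elements were looked for in RefSeq promoter windows (GRCm38.p6), which run from 250 bases before to 50 after a gene's start. Windows were found for 29 of the 35 genes, and Ect2 had 2 of them, which gives 30 windows. The letters CCAAT, on either strand, were in 23 of the 30 windows (76.7%) and in 37.4% of all 32851 windows of the same length. The CHR letters TTTGAA, on either strand, were in 23 windows (76.7%) and in 17.9% of all windows, and the variant TTCGAA was in 3 (10.0%) and in 1.56% of all. Both a CCAAT and either CHR form were in 21 windows (70.0%), against 7.53% of all windows. At least 2 CCAAT matches were in 18 of the 30 windows, against 11.7% of all. In all, 95 matches were found in the 30 windows, and 2 pairs of them overlapped. A match is a description of the letters and not a bound site.

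The sequences below are the starts of the 6 genes whose p-value for the knockout effect in the stem cell gate was smallest, among those with a match and a printable window. Each is 175 bases from 150 before to 25 after the start, on the gene's own strand, and capitals mark CCAAT (or ATTGG, the same box on the other strand) and the CHR letters TTTGAA (or TTCAAA) and TTCGAA. Their probe sets carry the Entrez Gene numbers 22137 (Ttk), 18817 (Plk1), 70466 (Ckap2l), 18005 (Nek2), 21973 (Top2a) and 73804 (Kif2c). The positions in GRCm38.p6 are chr9:83834539-83834713 on the plus strand for Ttk, chr7:122159285-122159459 on the plus strand for Plk1 and chr2:129297188-129297362 on the minus strand for Ckap2l. For Nek2 it is chr1:191821323-191821497 on the plus strand, for Top2a chr11:99024165-99024339 on the minus strand and for Kif2c chr4:117178748-117178922 on the minus strand.
Ttk: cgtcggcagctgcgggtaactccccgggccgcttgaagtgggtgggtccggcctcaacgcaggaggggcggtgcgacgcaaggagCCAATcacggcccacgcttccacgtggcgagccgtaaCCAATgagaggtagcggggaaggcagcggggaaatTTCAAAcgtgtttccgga
Plk1: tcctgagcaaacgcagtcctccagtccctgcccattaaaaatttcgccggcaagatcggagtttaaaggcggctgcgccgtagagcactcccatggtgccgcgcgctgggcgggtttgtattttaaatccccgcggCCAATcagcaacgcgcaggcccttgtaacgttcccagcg
Ckap2l: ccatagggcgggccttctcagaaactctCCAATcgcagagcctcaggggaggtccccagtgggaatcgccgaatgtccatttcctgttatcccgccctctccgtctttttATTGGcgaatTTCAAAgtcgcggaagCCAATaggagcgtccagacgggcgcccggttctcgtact
Nek2: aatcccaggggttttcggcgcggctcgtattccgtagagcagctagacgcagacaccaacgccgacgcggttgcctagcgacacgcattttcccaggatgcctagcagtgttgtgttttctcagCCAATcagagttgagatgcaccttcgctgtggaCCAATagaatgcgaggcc
Top2a: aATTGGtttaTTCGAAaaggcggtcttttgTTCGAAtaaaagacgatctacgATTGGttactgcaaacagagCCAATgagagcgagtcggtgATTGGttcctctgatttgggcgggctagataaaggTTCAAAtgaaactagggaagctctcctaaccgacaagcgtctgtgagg
Kif2c: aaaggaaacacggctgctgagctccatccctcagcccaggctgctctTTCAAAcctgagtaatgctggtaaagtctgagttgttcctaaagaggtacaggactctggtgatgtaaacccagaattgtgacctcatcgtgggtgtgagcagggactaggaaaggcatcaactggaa
Ttk holds 2 CCAAT boxes and a CHR match just past its start. Top2a holds 4 CCAAT matches, both TTCGAA matches and a TTTGAA match in the printed stretch. Nek2 has CCAAT matches alone and Kif2c a CHR match alone, and the TTTGAA match of Plk1 lies in its 300-base window outside the printed stretch. The 20 genes with both elements had a median log2 difference of -0.50 (range -0.80 to -0.14) between the genotypes in EGFP high cells, and the 9 without both had -0.55 (range -0.90 to -0.33). The medians were close, and the smallest differences belonged to genes with both elements.

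The deposited values are log2 values from RMA, in which a difference of 1 is a doubling. As a check of the labels, Atg7 read 6.14 ± 0.23 (SD, n = 3) in Atg7KO-High and 6.79 ± 0.04 (SD, n = 3) in WT-High, and 5.89 ± 0.20 (SD, n = 4) in Atg7KO-Low and 6.91 ± 0.43 (SD, n = 4) in WT-Low, with no overlap between genotypes in either gate. The sources used here do not name the floxed exons, so this probe set may also read exons that remain after recombination. Lgr5, which marks the sorted stem cells, lay between 8.69 and 9.30 on the EGFP high arrays and between 4.65 and 6.25 on the EGFP low arrays. Arrays also differed in the SD of all their values, which was 1.90 to 1.98 in Atg7KO-High, 1.99 to 2.06 in WT-High, 1.98 to 2.04 in Atg7KO-Low and 1.90 to 2.06 in WT-Low. Nothing in the sources used here gives a batch, and arrays give no read depth, so the number of arrays limits the precision.

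Over the 35 genes the mean level was 8.18 ± 0.03 (SD, n = 3) in WT-High, 7.67 ± 0.12 (SD, n = 3) in Atg7KO-High, 7.83 ± 0.18 (SD, n = 4) in WT-Low and 7.86 ± 0.18 (SD, n = 4) in Atg7KO-Low. Wild-type EGFP high arrays were the highest of all and close together, at 8.15 to 8.20. The knockout EGFP high arrays lay at 7.57 to 7.80, below them and beside the lower of the EGFP low arrays, which ran from 7.59 to 8.04. In bulk samples such as these, fewer cells in G2 and mitosis and less RNA of these genes per cell cannot be told apart.

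**Figure D1:**
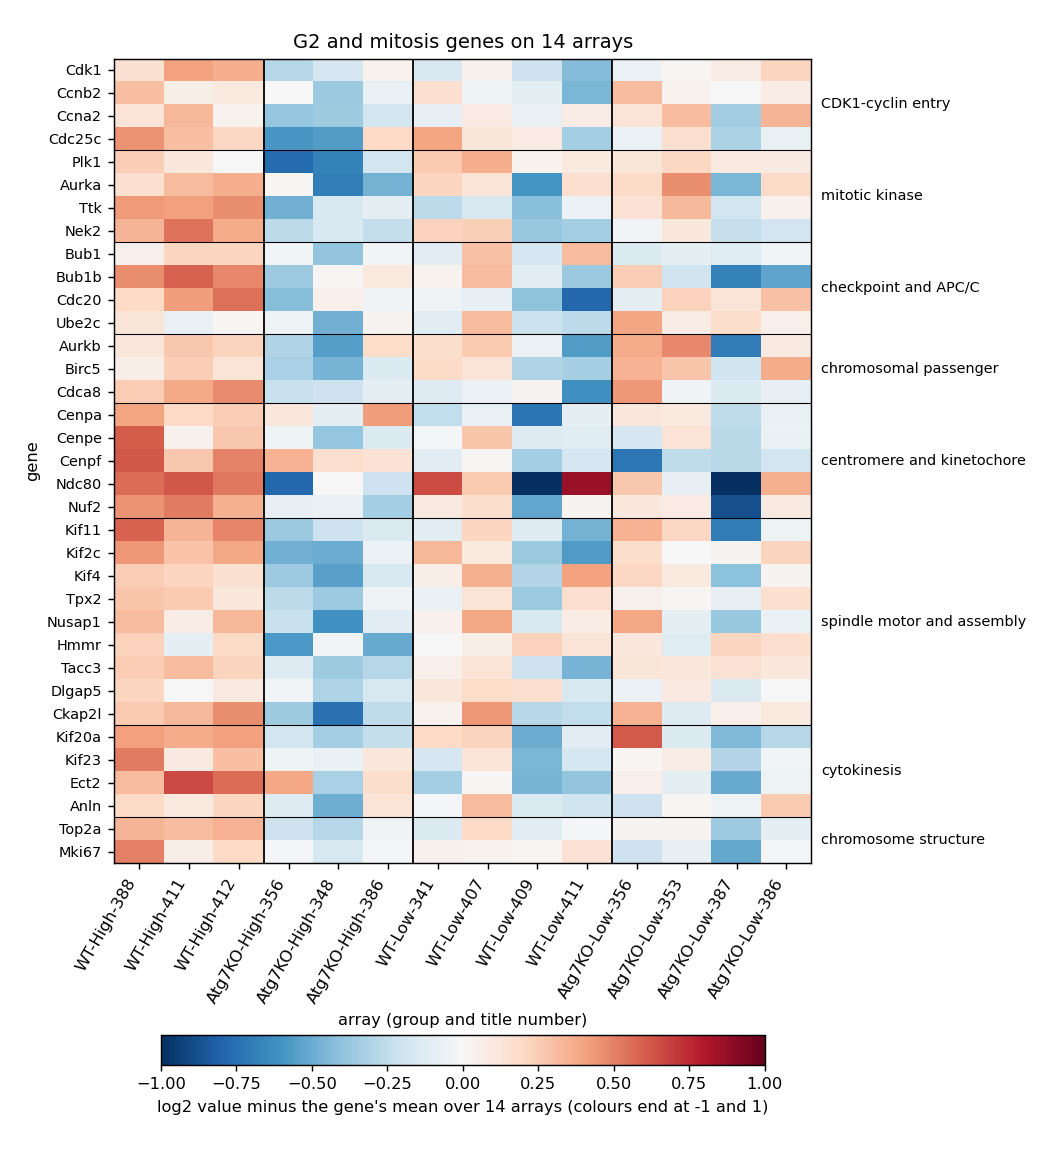
Each row is 1 of the 35 genes and each column 1 array, and the colour is the gene's log2 value minus its mean over the 14 arrays, with colours ending at -1 and 1. Genes are grouped by role. The 3 WT-High columns are above the gene's mean for nearly all genes, and most genes are below it on Atg7KO-High-348 and Atg7KO-High-356.

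The knockout was first set against wild type, to see how loss of Atg7 bears on these genes in the stem cell gate. All 35 genes had a lower mean in Atg7KO-High than in WT-High. Their log2 differences ran from -0.90 to -0.14, with the median at -0.51. Over all 15873 genes tested the median was -0.03 and 53.8% were lower. With all genes divided by mean level into 5 equal classes, 76.7% were lower in the brightest class and 73.4% in the next. These classes hold 25 and 8 of the 35 genes. No single gene passed limma's test across all genes, with adjusted p from 0.131 to 0.755, where 0.0126% of all genes were called. Of the 35, 23 were lower at an unadjusted p under 0.05, against 9.88% of all genes. In 27 of the 35 the 3 knockout arrays all lay below the 3 wild-type arrays, against 15.2% of all genes.

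The mitotic kinases had the lowest median of the groups of genes by role, -0.66, and all 4 were at an unadjusted p under 0.05 with no overlap between the groups. Ttk (Mps1), the kinase that starts the spindle checkpoint at unattached kinetochores, read 7.65, 7.66 and 7.70 on the wild-type and 6.75, 7.08 and 7.15 on the knockout EGFP high arrays. The wild-type values were close together and all above the knockout values. Its log2 difference was -0.68 (SE 0.16, limma adjusted p = 0.131), the smallest p of the 35 genes. Plk1, the Polo kinase that acts from centrosome maturation to cytokinesis, read 8.39, 8.51 and 8.64 in wild type and 7.63, 7.72 and 8.21 in the knockout. Atg7KO-High-386 was the knockout array nearest to wild type, and the difference was -0.66 (SE 0.16, limma adjusted p = 0.133). Without that array the difference was -0.84 and passed (limma adjusted p = 0.0417), the only gene of the 35 called when a single array was left out. That fit called 43 of all genes, against 2 in the main fit. Nek2, a kinase that separates the duplicated centrosomes, read 6.40, 6.43 and 6.61 in wild type and 5.80, 5.83 and 5.91 in the knockout, where the 3 values were close together. Its difference was -0.63 (SE 0.18, limma adjusted p = 0.173). Aurka, the Aurora kinase of the spindle poles, differed by -0.67 (SE 0.26), with wild-type arrays at 7.91 to 8.11 and knockout arrays at 7.05 to 7.76.

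The genes of the spindle and its motors had a median of -0.55, and 8 of 9 were at an unadjusted p under 0.05. Ckap2l, a spindle and centrosome protein also called radmis, read 5.45, 5.51 and 5.65 in wild type and 4.44, 4.84 and 4.93 in the knockout. Its level was 1.74-fold lower in the mean, a log2 difference of -0.80 (SE 0.20, limma adjusted p = 0.133), with no overlap. Kif2c, a kinesin that takes tubulin off microtubule ends to correct wrong attachments, read 6.88, 6.99 and 7.04 in wild type and 6.10, 6.12 and 6.55 in the knockout, a difference of -0.71 (SE 0.21). Kif11 (Eg5), the motor that pushes the spindle poles apart, differed by -0.71 (SE 0.24), and Kif4, a chromosome-bound kinesin, by -0.56 (SE 0.20). For Tpx2, which activates Aurora A on the spindle, the difference was -0.44, for the microtubule bundler Nusap1 -0.55, and for Tacc3, which cross-links spindle fibres, -0.52. Hmmr, a spindle protein, was the 1 gene of the 23 whose arrays overlapped, at 7.43 to 7.76 in wild type and 6.95 to 7.50 in the knockout. Dlgap5 (HURP), which stabilises the fibres at kinetochores, had the smallest difference of the 9, -0.27.

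Both genes of chromosome structure had no overlap. Top2a, the topoisomerase that untangles sister DNA, read 10.01, 10.04 and 10.04 in wild type and 9.41, 9.48 and 9.66 in the knockout. The wild-type arrays stood at nearly the same value, and the difference was -0.51 (SE 0.15, limma adjusted p = 0.175). Mki67, which coats mitotic chromosomes and is the usual marker of cycling cells, read 9.37, 9.50 and 9.80 in wild type and 9.14, 9.28 and 9.29 in the knockout, a difference of -0.32 (SE 0.16).

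Among the genes of mitotic entry, Cdk1, the mitotic kinase itself, read 8.99, 9.20 and 9.24 in wild type and 8.55, 8.66 and 8.87 in the knockout. The groups did not overlap, and the difference was -0.45 (SE 0.16). Its partner cyclins Ccna2 and Ccnb2 differed by -0.48 and -0.30, and Cdc25c, the phosphatase that switches CDK1 on, by -0.63. Of these 4 genes 3 were at an unadjusted p under 0.05, and the exception was Ccnb2.

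For the spindle checkpoint, Bub1b (BubR1), part of the complex that blocks the anaphase-promoting complex, differed by -0.60 (SE 0.23) and Bub1, a kinetochore kinase, by -0.31 (SE 0.16). Cdc20, the co-activator of the anaphase-promoting complex that the checkpoint restrains, read 8.13, 8.34 and 8.48 in wild type and 7.51, 7.89 and 7.98 in the knockout. Its groups did not overlap, and the difference was -0.52 (SE 0.20). Ube2c, the ubiquitin-conjugating enzyme of that complex, read 10.36 to 10.56 against 9.95 to 10.46, an overlap, with a difference of -0.19 (SE 0.18, limma adjusted p = 0.631).

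The chromosomal passenger complex is the Aurora B kinase with its targeting subunits. Aurkb differed by -0.43 (SE 0.29) with overlapping arrays, Birc5 (survivin) by -0.46 (SE 0.19) and Cdca8 (borealin) by -0.54 (SE 0.19), the latter pair with no overlap. Of the kinetochore genes, Cenpe, the motor that carries chromosomes to the spindle equator, differed by -0.49 (SE 0.18). Nuf2 and Ndc80 encode partners in the complex that grips microtubules, and differed by -0.61 (SE 0.25) and -0.90 (SE 0.54). Ndc80 had the largest difference and the largest SE of the 35 genes, and it ranged from 5.42 to 8.21 over the EGFP low arrays, which share the fit. Cenpf, a large outer kinetochore protein, differed by -0.24 (SE 0.17) with overlap. Cenpa, the histone that marks the centromere, had the smallest difference, -0.14 (SE 0.19, limma adjusted p = 0.755), and it was the only gene whose highest EGFP high array was a knockout one, Atg7KO-High-386.

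The genes of cytokinesis had the median nearest to 0 of the groups by role, -0.38. Kif20a, a motor of the central spindle, read 6.84, 6.88 and 6.88 in wild type and 6.13, 6.24 and 6.29 in the knockout, with no overlap and a difference of -0.65 (SE 0.24). The other 3 overlapped. For Ect2, the exchange factor that switches on RhoA at the cleavage site, the difference was -0.44 (SE 0.21), for the scaffold Anln (anillin) -0.33 (SE 0.19) and for Kif23, the motor of the centralspindlin complex, -0.30 (SE 0.17).

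**Figure D2:**
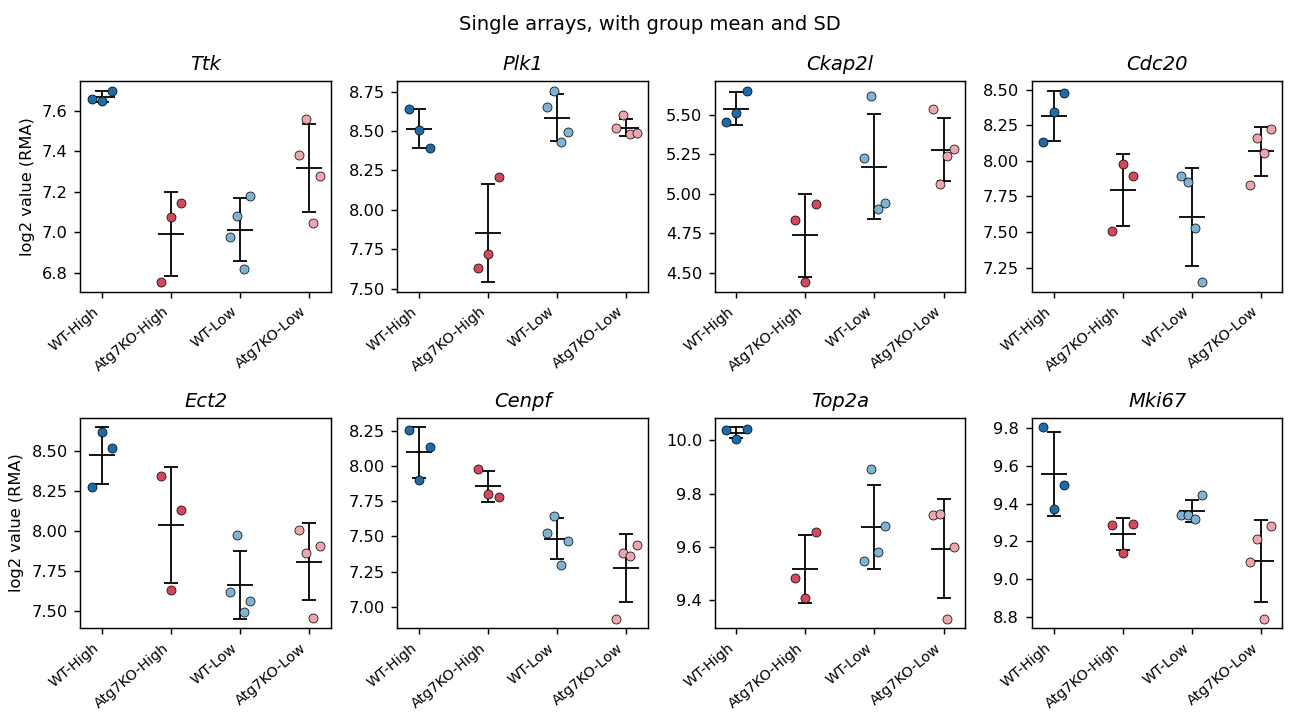
Each point is 1 array, with the group mean as a long bar and the SD as whiskers, for 8 of the genes, and the vertical axis is the log2 value, with its own scale in each panel. For Ttk and Top2a the 3 WT-High points lie almost on top of each other and above those of Atg7KO-High, while Cdc20 is higher in Atg7KO-Low than in WT-Low in the mean.

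In the EGFP low gate, the transit amplifying cells, the 35 genes were split, with 16 lower and 19 higher in the knockout and a median log2 difference of 0.07 (0.00 over all genes). The range was -0.52 to 0.46. The split was not stable: without WT-Low-411 19 genes were lower and 16 higher (median -0.04), and with single arrays left out the genes lower in the knockout numbered 11 to 19. No gene passed limma's test, with 0.0063% of all genes called and a smallest adjusted p of 0.647. At an unadjusted p under 0.05 there were 2 higher genes, against 3.86% of all genes, and 0 lower ones. The higher genes numbered 0 without Atg7KO-Low-386 and 4 without WT-Low-407. Only Mki67 had groups that did not overlap, at 9.32 to 9.45 in wild type and 8.79 to 9.28 in the knockout, against 1.69% of all genes with such a lower knockout. Its difference was -0.27 (SE 0.14, limma adjusted p = 0.714).

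Cdc20 and Ttk were the pair of genes with higher values. Cdc20 read 7.15, 7.53, 7.85 and 7.89 in WT-Low and 7.83, 8.06, 8.16 and 8.22 in Atg7KO-Low, and the ranges touched only where 1 knockout array fell below the top wild-type ones. The difference was 0.46 (SE 0.18, limma adjusted p = 0.647). Ttk read 6.82, 6.98, 7.08 and 7.18 in WT-Low and 7.04, 7.28, 7.38 and 7.56 in Atg7KO-Low. Its difference was 0.30 (SE 0.14, limma adjusted p = 0.688), so the sign for Ttk was opposite to that in EGFP high cells. For Cdk1 and Tacc3 the differences were 0.25 (SE 0.13) and 0.24 (SE 0.14), and for Hmmr and Kif20a they were -0.01 and -0.02 (limma adjusted p = 0.992 and 0.993). The 3 chromosomal passenger genes were all higher, by 0.11 (Aurkb), 0.24 (Cdca8) and 0.28 (Birc5), while 4 of the 5 kinetochore genes were lower. Low values in this gate were gathered on few arrays: 12 of the 35 genes had their lowest value on Atg7KO-Low-387, 10 on WT-Low-409 and 10 on WT-Low-411.

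**Figure D3:**
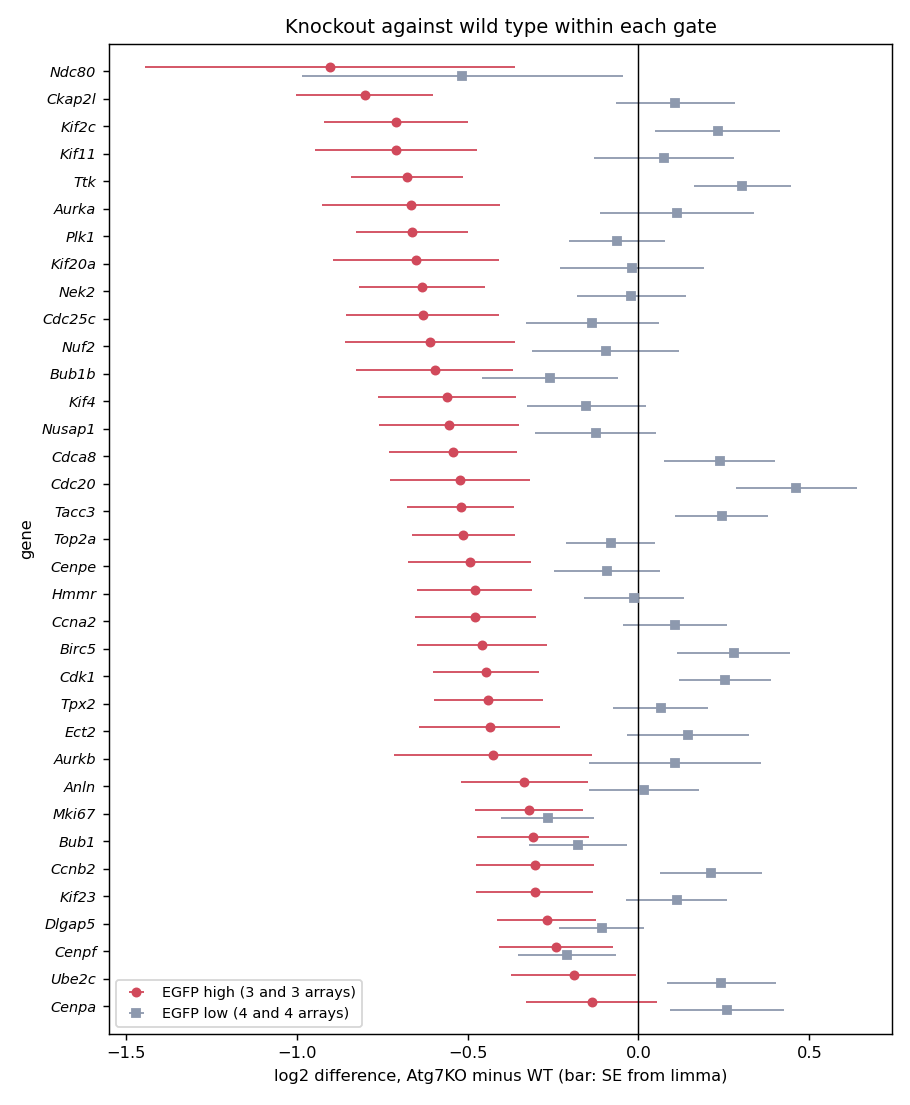
The horizontal axis is the log2 difference of knockout minus wild type and the bar its SE from limma, for EGFP high cells (red circles) and EGFP low cells (grey squares), with the genes sorted by the first. All 35 red circles lie left of 0, from -0.90 (Ndc80) to -0.14 (Cenpa), and the grey squares lie on both sides.

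Whether the knockout effect differed between the gates was tested directly. The effect was lower in EGFP high than in EGFP low cells for all 35 genes, with a median of -0.51 (-0.03 over all genes), but none passed limma's test, and 0.0063% of all genes did. Bright genes as a whole had a lower effect too. In the brightest of 5 equal classes by mean level, the median was -0.30 over all its genes and -0.51 for the 25 members in it. In the next class these medians were -0.21 and, for its 8 members, -0.45. Of the 35 genes, 16 were lower at an unadjusted p under 0.05, against 8.49% of all genes. Ttk came first at -0.98 (SE 0.22, limma adjusted p = 0.176). Cdc20 stood at -0.98 (SE 0.27), Ckap2l at -0.91 (SE 0.27), Tacc3 at -0.76 (SE 0.21) and Cdk1 at -0.70 (SE 0.21), each at limma adjusted p = 0.226. Cenpf (-0.03) and Mki67 (-0.05) had almost the same difference between genotypes in both gates, with limma adjusted p = 0.957 and 0.927. The median was -0.27 after a new quantile normalization, -0.25 with cyclic loess and -0.31 with the array SD as a covariate, with 31, 31 and 32 genes lower. These values hold the same arrays as the comparisons within each gate and are no separate evidence.

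The next comparisons ask how stem cells differ from their progeny in each genotype. In wild type, 34 of the 35 genes had a higher mean in EGFP high than in EGFP low cells, with a median log2 difference of 0.35 (0.03 over all genes). Limma called 2 of them, Ttk and Ect2, where 2.44% of all genes were called in either direction. At an unadjusted p under 0.05 there were 15 higher genes, against 8.88% of all genes, and for 14 the 3 EGFP high arrays lay above all 4 EGFP low arrays, against 9.97% of all genes. Plk1 was the exception in sign, at -0.07 (SE 0.15).

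Ttk, with the array values given above, rose by 0.66 from EGFP low to EGFP high (SE 0.15, limma adjusted p = 0.038), a gap between 7.65 as the lowest EGFP high and 7.18 as the highest EGFP low value. Ect2 read 8.28, 8.52 and 8.62 in WT-High and 7.50, 7.56, 7.62 and 7.97 in WT-Low. The groups did not overlap, and it rose by 0.81 (SE 0.19, limma adjusted p = 0.0402). Cenpf read 7.90, 8.13 and 8.25 in WT-High and 7.30, 7.47, 7.53 and 7.64 in WT-Low, again with no overlap, and its difference of 0.61 (SE 0.16) just missed the threshold (limma adjusted p = 0.0541). Cdc20 differed by 0.71 (SE 0.19, limma adjusted p = 0.0649) and Cdk1 by 0.50 (SE 0.15, limma adjusted p = 0.0933). At the other end were Dlgap5 at 0.03 and Hmmr at 0.00 (limma adjusted p = 0.956 and 0.995).

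Both calls were close to the threshold. Neither passed without WT-High-388, WT-High-411, WT-High-412, WT-Low-341 or WT-Low-409, each left out alone (0 genes called). Ttk alone was called without WT-Low-411 or Atg7KO-Low-353, Ect2 alone without WT-Low-407, and Cenpf joined them without Atg7KO-Low-356. With array weights 7 genes were called, and with the array SD as a covariate 0.

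In the knockout the order of the gates differed from gene to gene. In Atg7KO-High against Atg7KO-Low, 28 genes were lower and 7 higher, with a median of -0.22 (0.02 over all genes). Limma called 1 gene lower, Plk1, and 1 higher, Cenpf, where 10.9% of all genes were called in either direction. At an unadjusted p under 0.05 there were 7 lower genes, against 14.4% of all genes, and 1 higher gene, against 12.6%. For 6 genes the EGFP high arrays lay below all EGFP low arrays, against 11.8% of all genes, and for 1 they lay above, against 10.8%. Brighter genes as a whole were also lower in this comparison. In the brightest of 5 equal classes by mean level, the median over all genes was -0.19, with 67.6% lower. The 25 members in that class had nearly the same median, -0.22. In the next class the median was -0.08 over all genes, with 57.2% lower, and -0.22 for its 8 members.

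Plk1 read 7.63, 7.72 and 8.21 in Atg7KO-High and 8.48, 8.49, 8.52 and 8.60 in Atg7KO-Low, where the 4 values were close together. The groups did not overlap, and it fell by 0.67 (SE 0.15, limma adjusted p = 0.0132) in EGFP high cells. Cenpf read 7.78, 7.80 and 7.98 in Atg7KO-High and 6.91, 7.36, 7.38 and 7.44 in Atg7KO-Low. It rose by 0.58 (SE 0.16, limma adjusted p = 0.0288), close to its 0.61 in wild type. Next by p were Hmmr at -0.46 (SE 0.16), Ckap2l at -0.54 (SE 0.19) and Birc5 at -0.51 (SE 0.18), at limma adjusted p = 0.0734, 0.0778 and 0.0818, and last were Nuf2 at -0.01 and Ndc80 at 0.01. Ect2, called in wild type, stood at 0.23 (SE 0.19), and Ttk at -0.33 (SE 0.15). Neither call held without Atg7KO-High-356 or in a fit on these groups alone. Plk1 alone was called without Atg7KO-Low-356 and Hmmr alone without Atg7KO-High-348, and without Atg7KO-Low-387 Birc5 and Ccna2 joined the calls (4 in all). The median over the 35 genes was -0.05 after a new quantile normalization and -0.03 with the array SD as a covariate, where 18 genes were lower and 17 higher.

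**Figure D4:**
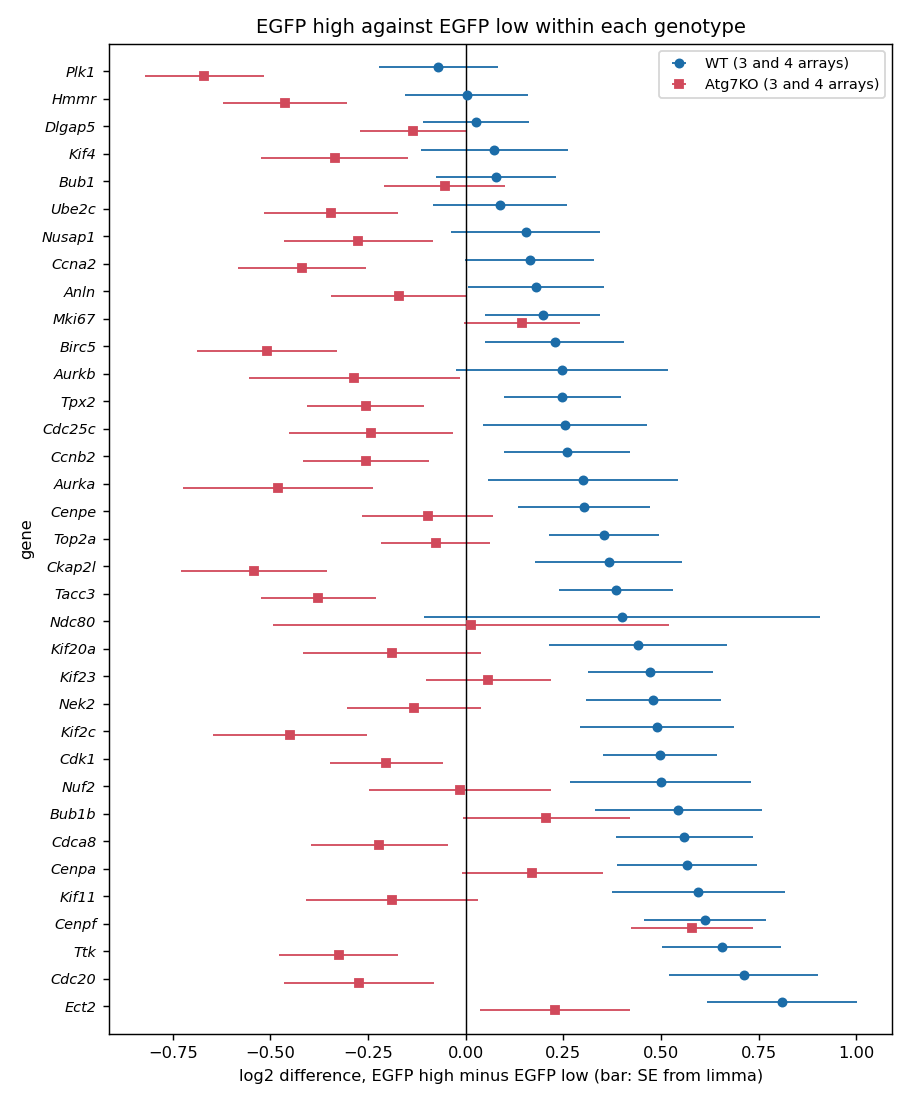
The horizontal axis is the log2 difference of EGFP high minus EGFP low and the bar its SE from limma, for wild type (blue circles) and knockout (red squares). All blue circles but that of Plk1 (-0.07) lie at or right of 0, and for Cenpf alone among the called genes both genotypes stand at nearly the same value (0.61 and 0.58).

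Several measures moved with the knockout in EGFP high cells. The array SD was lower on all 3 Atg7KO-High arrays than on any WT-High array. With it as a covariate, or after a new quantile normalization or cyclic loess, the median of the 35 genes was -0.31, -0.31 and -0.30, with 4, 11 and 10 genes lower at an unadjusted p under 0.05, and 34 of 35 lower. With array weights 8 genes were called lower (Cdca8, Ckap2l, Kif2c, Nek2, Plk1, Tacc3, Top2a and Ttk). That fit called 703 of the 15873 genes, against 2 in the main fit. It gave WT-High-412 the largest weight, 3.27, and the next largest was 1.47 (WT-Low-407). Bright genes as a whole also had lower values: with all genes divided by mean level into 5 equal classes, the median difference in the brightest class was -0.24, and 25 of the 35 genes lie there with a median of -0.48. In the next class it was -0.20 over all genes and -0.64 for the 8 members in it. When each array was centred on its median, which moved the median of all genes from -0.03 to -0.14, the median of the 35 genes was -0.62.

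**Figure D5:**
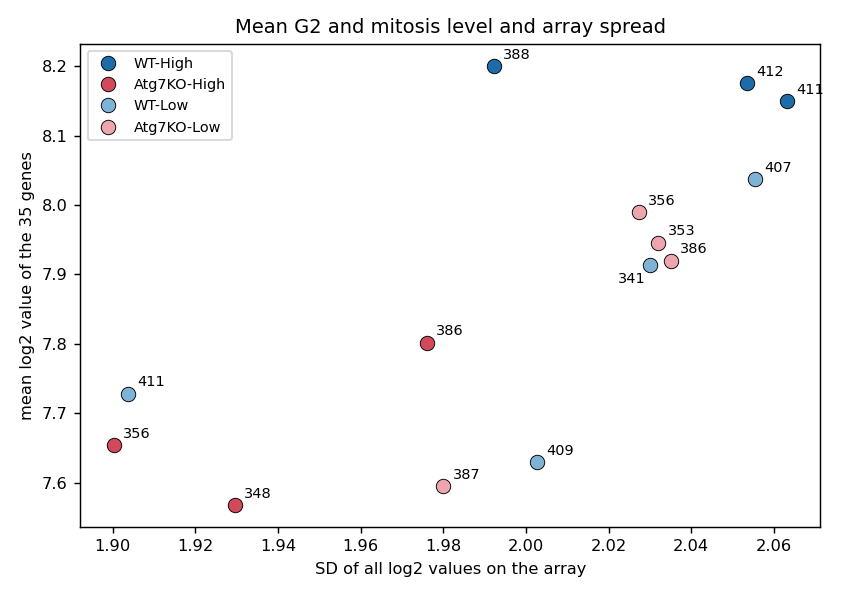
Each point is 1 array, labelled by its title number, with the SD of all its log2 values on the horizontal axis and the mean of the 35 genes on the vertical axis. The 3 WT-High arrays are highest, at 8.15 to 8.20, and the Atg7KO-High arrays have spreads of 1.90 to 1.98 and means of 7.57 to 7.80.

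Markers of some mature cell types moved with the knockout too. In EGFP high cells all 13 goblet cell markers tested were lower, with a median of -0.94, and their mean over the array ran from 7.76 to 9.41 in Atg7KO-High and from 9.25 to 9.69 in WT-High. Of 11 Paneth cell markers 10 were lower (median -1.86), with array means of 8.06 to 9.26 against 9.40 to 10.41, and of 15 enterocyte markers 14 were lower (median -0.52), with means of 7.86 to 8.00 against 7.94 to 9.11. The 15 Lgr5 stem cell markers had a median of 0.05 and array means of 8.29 to 8.52 against 8.35 to 8.49, and the 13 enteroendocrine markers a median of -0.06 and means of 5.89 to 7.78 against 6.64 to 7.22. The marker differences were not confined to this gate. In EGFP low cells all 11 Paneth cell markers were lower in the knockout (median -0.84), and 11 of 13 goblet cell markers (median -0.11). Of the 15 enterocyte markers 12 were higher in that gate (median 0.05). Array means of the tuft cell, leukocyte and stromal lists stayed low, at 3.85 to 4.53 over the EGFP high arrays, and in WT-High 1 of 9, 4 of 13 and 6 of 12 of their markers never reached the filter. Whether any of these measures has a part in the difference of the G2 and mitosis genes was not tested.

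Other genes of the same program gave a wider view. Of 79 further G2 and mitosis genes 69 were lower in Atg7KO-High than in WT-High, with a median of -0.32. Of them 15 were lower at an unadjusted p under 0.05, against 9.88% of all genes. None was called by limma. Those with the smallest p were Smc2 and Ncaph, subunits of condensin (-0.54 and -0.88, limma adjusted p = 0.131 and 0.133), Lmnb1, a protein of the nuclear lamina (-0.77), and Sass6, which seeds new centrioles (-0.64). In wild type 72 of these 79 were higher in EGFP high than in EGFP low cells (median 0.33), and limma called 2, a share like the 2.44% of all genes. Psrc1, a microtubule-binding spindle protein, rose by 1.18 (SE 0.27, limma adjusted p = 0.0335) and Aspm, a spindle pole protein, by 0.82 (SE 0.19, limma adjusted p = 0.0385). In the knockout the median was 0.02, with 36 lower and 43 higher, and Psrc1 rose by 1.29 (SE 0.27, limma adjusted p = 0.00803) and Cit, the citron kinase of the midbody, by 0.95 (SE 0.16, limma adjusted p = 0.00272). These 2 were the only genes of the 79 called there, a smaller share than the 10.9% of all genes.

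Of 16 genes of the anaphase-promoting complex and its helpers, 12 were lower in knockout EGFP high cells (median -0.22), where 53.8% of all genes were lower. Only 2 of the 16 were lower at an unadjusted p under 0.05, near the 9.88% of all genes. These were the subunits Anapc7 (-0.80, SE 0.18, limma adjusted p = 0.131) and Anapc15 (-0.64, SE 0.19, limma adjusted p = 0.181). Anapc7 also fell in EGFP high against EGFP low cells of the knockout, by 0.72 (SE 0.17, limma adjusted p = 0.0165), the only call of this list in any comparison. Between those gates 10.9% of all genes were called.

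Of 18 regulators of the program 16 were lower in knockout EGFP high cells (median -0.28), 3 at an unadjusted p under 0.05, against 9.88% of all genes. Trp53 is not analysed here. Foxm1, the transcription factor that turns on late cell cycle genes, read 7.25 ± 0.23 in Atg7KO-High and 7.97 ± 0.09 in WT-High (SD, n = 3 each), with no overlap and a difference of -0.72 (SE 0.32, limma adjusted p = 0.292). In EGFP low cells it read 7.80 ± 0.69 against 7.42 ± 0.34 (SD, n = 4 each). Mybl2 (B-Myb) differed by -0.48 (SE 0.26) in EGFP high cells, Lin9, a MuvB subunit, by -0.60 (SE 0.22), and Lin54, the subunit that reads the CHR, by -0.09 (SE 0.15). Cdkn1a (p21), the CDK inhibitor, was also lower in the knockout, at 6.58 ± 0.48 against 7.59 ± 0.06 (SD, n = 3 each), with no overlap and a difference of -1.003 (SE 0.25, limma adjusted p = 0.133). Cdkn1a fell in EGFP high against EGFP low cells by 1.34 in wild type (SE 0.23, limma adjusted p = 0.00884), and in the knockout it fell by 2.33 (SE 0.23, limma adjusted p = 0.000138). It was the only regulator called in either, where 2.44% and 10.9% of all genes were called.

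Genes of the preceding S phase had values of the same kind. Of 46 tested 41 were lower in knockout EGFP high cells, with a median of -0.35. Of them 17 were at an unadjusted p under 0.05, against 9.88% of all genes. The smallest p belonged to Slbp, the histone mRNA binding protein (-0.61), Rrm1, a subunit of ribonucleotide reductase (-0.82), Gins1, part of the replicative helicase (-0.74), and Rpa1, which binds single-stranded DNA (-0.98), with limma adjusted p from 0.131 to 0.181. In wild type 45 of the 46 were higher in EGFP high than in EGFP low cells (median 0.49). Limma called 0 of them, against 2.44% of all genes, and 23 were at an unadjusted p under 0.05, against 8.88%. In the knockout 24 were lower and 22 higher, and Slbp fell by 0.51 (limma adjusted p = 0.0244) and Ccne1 (cyclin E) by 0.70 (limma adjusted p = 0.0488). These 2 were the only genes of the 46 called, a smaller share than the 10.9% of all genes.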

How the data were processed

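Per the submitters' processing notes, the authors used RMA in Affymetrix Expression Console, and the deposited table holds its log2 values, 1 per probe set and array. RMA includes a quantile normalization of the probes, so it can narrow large differences. The sources used here give no versions of these tools. Of 25429 probe sets 754 lack a gene symbol and were left out. Levels of different probe sets were not compared.

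Groups came from the sample titles. Genes entered the fit where at least 3 arrays reached the array's own 40th percentile, in all 15873 genes. Group means over 14 arrays were fitted by lmFit and eBayes of limma 3.58.1 under R 4.3.3 (residual df 10, prior df 4.54). P-values are two-sided and were adjusted by Benjamini and Hochberg's method over all genes tested, and "called" means an adjusted p under 0.05. The fit was tested on simulated data. An SE comes from this fit, and an SD is over arrays. P-values measure the spread between these arrays only.

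The genes, lists and naming rule were chosen with earlier results of these data known, so a list is described by its counts and median, with no test over it. Every member with a probe set is named. Full statistics go to the called members of a comparison, filled up to 5 by smallest p, and the 2 with the largest p are named. Up to 4 genes of each other list are named by smallest p in the comparisons described, and Foxm1, Mybl2, Lin54 and Cdkn1a always. Arrays could not be paired from the labels. Alternatives covered normalization, the filter, the prior, array weights, the array SD as a covariate, the groups in the fit, a replicate block and each array left out.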

Additional observations from a re-analysis of the deposited data

Results flagged for a closer look

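Over 72 groups of 4 arrays, which are the 35 genes and their mean in each genotype of the EGFP low gate, 4 values stood far below the other 3 arrays. Chance gives about 1 such group in 20, so over 72 groups the 4 found are near the number that chance gives. Aurka, the spindle pole kinase, read 7.15 on WT-Low-409 against 7.88 to 7.96 on the other wild-type EGFP low arrays. Birc5, of the chromosomal passenger complex, read 8.08 on Atg7KO-Low-387 against 8.56 to 8.65 on the others of its group. Nuf2, a kinetochore gene, read 6.93 on the same array, Atg7KO-Low-387, against 7.89 to 7.91. Cenpf, called between the gates of the knockout, read 6.91 on Atg7KO-Low-356 against 7.36 to 7.44.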

How the results depend on the processing

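The 5 genes with the smallest p in each comparison kept their sign in every alternative run. In the EGFP high gate, knockout against wild type, the median of the 35 genes was -0.31 after a new quantile normalization (11 lower at unadjusted p under 0.05), -0.30 with cyclic loess (10), -0.31 with the array SD as a covariate (4) and -0.62 with median centring. There 8 genes were called with array weights, a fit that called 703 of all genes, and 0 to 1 with any array left out. In EGFP low cells the median ran from -0.04 to 0.13 with any array left out, and it was -0.0076 with the array SD and -0.00997 with array weights. There 1 gene was lower at unadjusted p under 0.05 after either renormalization, and 0 to 1 with any array left out. For the difference between gates the median was -0.27, -0.25 and -0.31 in the first 3 settings, with 9, 9 and 3 lower genes. Between the gates of wild type, 7 genes were called with array weights, a fit that called 1201 of all genes. There 1 was called with cyclic loess, median centring or without the 2 arrays of lowest SD, 0 with the array SD, and 0 to 3 with any array left out. Between the gates of the knockout the median was -0.055 (quantile) and -0.026 (array SD), 0 genes were called with the array SD, in a fit on 2 groups or without the 2 arrays of lowest SD, and 0 to 4 with any array left out. There 3 (quantile), 4 (cyclic loess), 2 (array SD) and 12 (median centring) genes were lower at unadjusted p under 0.05, and 2 to 12 with any array left out. The causes were not tested. With the title number as a replicate block (within-number correlation 0.0732) the median in EGFP high cells was -0.52, with 24 lower genes at unadjusted p under 0.05, and no count of calls moved. The labels do not say whether a number found in both gates names the same mouse, so the numbers were not used as pairs in the main fit. Arrays sharing a number had correlations of 0.115, 0.182 and -0.04. Only the correlation of 0.182 was above the highest with an array of another number. With so few arrays per group, these values cannot decide whether such arrays came from the same mouse.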
